A study of Mus musculus with 4 samples.

Results

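The 8 genes described here, D17H6S56E-5, Vars, Msh5, Ltb, Tnf, Lta, Aif1 and H2-Ke6, lie in or beside the major histocompatibility complex on mouse chromosome 17 and do not themselves present antigen. They were found as the probes whose annotation gives exactly 1 gene symbol, that symbol being one of the 8. Each gene had 1 probe, so the set holds 8 of the 33012 probes on the array. All 8 probes were followed, and 6 of them had a value on all 4 arrays. The array covers 13840 genes by such single-symbol probes. The genes were chosen by their place in the complex and by their already known signals and differences between the 2 strains. These values are therefore given as a description. Calls of these genes are given only to show how calls depend on processing, and they are no test of the genes.

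Stomach RNA of male mice fed chow was compared between homozygous B6.CAST-17 congenic mice and wild-type C57BL/6J mice, the background strain. By its name the congenic strain carries CAST chromosome 17 on a B6 background, and which stretch of the chromosome it carries is not given in the sources used here. Each strain was represented by 2 pools, each of equal amounts of RNA from 3 animals, with food withdrawn 4 h before the stomach was taken. One array was run per pool, so n = 2 pools a strain throughout, and the small number of arrays limits the precision. Each error combines the spread between pools at its own probe with that at the other probes, through limma (2 residual and 3.971 prior degrees of freedom). Ages are not given in the labels.

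The class III part of the complex is a densely packed stretch of genes between the class II and class I antigen-presentation genes. It holds complement components, heat shock proteins, general housekeeping genes and a cluster of the tumour necrosis factor family. Tumour necrosis factor and lymphotoxin alpha are inflammatory cytokines that signal through the tumour necrosis factor receptors. Lymphotoxin beta anchors lymphotoxin alpha on the cell surface, and that complex signals through the lymphotoxin beta receptor, which organises lymphoid tissue, including that of the gut. In the reference gene order (assembly GRCm38.p6), 7 of the 8 genes lay between Notch4 and Ddx39b, here called the class III stretch. H2-Ke6 lay outside it, near the class I gene H2-K1, with 50 annotated protein-coding genes between it and D17H6S56E-5. D17H6S56E-5 and Vars were next to each other, and 2 protein-coding genes lay between Vars and Msh5. Ltb, Tnf and Lta were consecutive, and 1 protein-coding gene lay between Aif1 and Ltb.

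RefSeq promoter windows (GRCm38.p6, 250 bases before to 50 after the annotated start) were found for 7 of the 8 genes. Those of D17H6S56E-5 and Msh5 are shown because they belong to the 2 genes with the largest strain differences of the set, in opposite directions. The window of D17H6S56E-5 (chr17:35000697-35000996, minus strand) also reaches the next gene, since its first 90 bases lie inside the annotated span of Vars. Its capitals mark the 132 bases between the annotated spans of D17H6S56E-5 and Vars. The window of Msh5 (chr17:35046573-35046872, minus strand) has in capitals the matches to the promoter motifs named after the sequences.
D17H6S56E-5: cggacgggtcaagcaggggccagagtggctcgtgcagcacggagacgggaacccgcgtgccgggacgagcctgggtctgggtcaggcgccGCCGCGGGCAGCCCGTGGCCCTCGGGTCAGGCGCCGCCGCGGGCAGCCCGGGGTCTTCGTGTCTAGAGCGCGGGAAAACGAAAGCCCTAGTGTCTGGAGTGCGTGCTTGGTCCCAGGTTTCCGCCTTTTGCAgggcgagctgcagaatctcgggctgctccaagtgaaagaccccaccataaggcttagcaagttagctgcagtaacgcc
Msh5: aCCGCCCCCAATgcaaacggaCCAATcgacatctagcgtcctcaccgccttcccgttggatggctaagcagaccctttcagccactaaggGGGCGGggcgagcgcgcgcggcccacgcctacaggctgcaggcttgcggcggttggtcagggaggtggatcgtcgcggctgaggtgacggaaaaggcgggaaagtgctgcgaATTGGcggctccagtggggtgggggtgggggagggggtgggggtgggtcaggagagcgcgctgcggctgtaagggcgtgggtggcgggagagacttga

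Both windows were rich in G and C. G and C made up 67.0% of the D17H6S56E-5 window and 67.3% of the Msh5 window, against a median of 52.7% over 32841 windows. The D17H6S56E-5 window held 29 CpG pairs and the Msh5 window 27, against a median of 7. The 132 bases between D17H6S56E-5 and Vars were 68.9% G and C, with 15 CpG pairs. The Aif1 window stood at the other end of the set, with 45.0% G and C and 1 CpG pair. Those of Ltb, H2-Ke6, Lta and Tnf lay between, with 63.3%, 64.0%, 59.0% and 58.0% G and C.

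Each of 3 promoter motifs was searched as exact letters on both strands. The CCAAT box (CCAAT) was found in the Msh5 and H2-Ke6 windows and in 37.4% of all windows. The GC box (GGGCGG) was found in the Msh5 and Tnf windows and in 35.7% of all windows. The TATA box (TATAAA) was found in the Tnf and Lta windows and in 13.6% of all windows. Msh5 held 3 matches to CCAAT and 2 to GGGCGG, which did not overlap each other. None of these letters occurred in the D17H6S56E-5, Ltb and Aif1 windows.

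The signals are single values per probe on a log2 scale, with the log base inferred from their range. A difference is congenic minus wild type, ± SE, from 1 limma fit over the 13475 probes with a value on all arrays. A difference of 1 is therefore 2-fold. The medians of the 4 arrays over these probes lay between 12.819 and 12.824, and the median difference was -0.002. Among all compared probes, 64 passed an adjusted p of 0.05 (limma, Benjamini-Hochberg), which is 0.475%, with 39 higher (0.289%) and 25 lower (0.186%) in the congenic pools. Leaving out congenic pool 1 gave 15 calls and congenic pool 2 gave 27, while leaving out wild-type pool 1 gave 61 and wild-type pool 2 gave 168. All 11 stomach epithelial genes on the array, such as Atp4a and Gast, had a value on every array. So did 16 exocrine pancreas, 9 liver and 9 skeletal muscle genes, so this alone does not identify the tissue.

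D17H6S56E-5, Vars and Msh5 differed most. Of the 6 genes with a value on all arrays, Msh5 rose most and D17H6S56E-5 and Vars fell most in the congenic pools. The genes were picked with their differences known, so a count of them past the threshold would be no evidence of a strain difference. The congenic and wild-type pools did not overlap for 4 of the 6 genes, as for 49.4% of all compared probes, the fourth being H2-Ke6. The median difference of the 6 was -0.34.

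**Figure D1:**
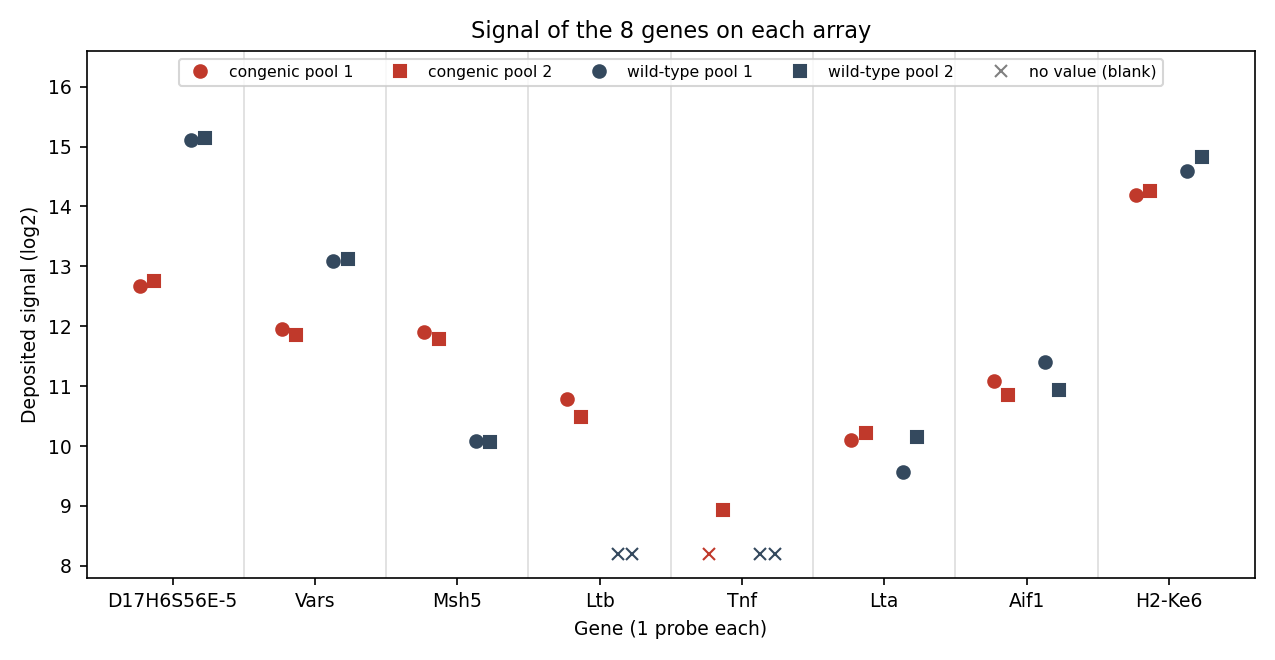
Deposited signal (log2) of the 8 genes on each of the 4 arrays, with congenic pools (red) left of wild-type pools (dark) and crosses near the axis for arrays with no value. D17H6S56E-5 and Vars were lower in both congenic pools, Msh5 was higher in both, and Lta and Aif1 overlapped between the strains.

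D17H6S56E-5 (probe 904816), a protein-coding gene known by its locus symbol and by the synonym G7e, read 12.68 and 12.75 in congenic pools 1 and 2, against 15.11 and 15.15 in wild-type pools 1 and 2. Both congenic arrays were low, and the pools of each strain lay within 0.0662 of each other, against a gap of 2.36 between the nearest arrays of the 2 strains. The difference was -2.42 ± 0.0844, or 5.34-fold lower in the congenic pools. In size it ranked 13 among the 13475 compared probes. Within the arrays the probe was a middling one in the congenic pools, brighter than 57.4% and 58.05% of the values there, and a bright one in the wild-type pools, brighter than 85.7% and 86.0%.

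Vars (probe 653170) encodes the cytosolic enzyme that attaches valine to its transfer RNA. It read 11.96 and 11.86 in congenic pools 1 and 2, against 13.09 and 13.13 in wild-type pools 1 and 2. Both congenic arrays were again the low ones, with a gap of 1.13 between the strains and a gap of 0.0986 within the congenic and 0.037 within the wild-type arrays. The difference was -1.20 ± 0.113, or 2.30-fold lower in the congenic pools. Vars and D17H6S56E-5, whose annotated spans flank the stretch printed in capitals above, differed in the same direction, with the larger difference at D17H6S56E-5.

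Msh5 (probe 682540) encodes a MutS homologue that stabilises crossover intermediates in meiosis as a partner of Msh4. It read 11.90 and 11.78 in congenic pools 1 and 2, against 10.09 and 10.06 in wild-type pools 1 and 2. Both congenic arrays were the high ones here. The difference was 1.76 ± 0.182, or 3.40-fold higher in the congenic pools. The wild-type values were dim, brighter than 13.4% and 10.8% of the values on their arrays, while the congenic values stood above 44.5% and 41.9%. Its partner gene Msh4 had no value on any array.

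The measured genes on either side of these 3 differed less, though the 3 were picked with their differences known. Lsm2, an RNA-binding subunit of complexes in splicing and mRNA decay and the annotated neighbour of D17H6S56E-5, read 13.76 and 13.70 in the congenic pools and 14.11 and 14.20 in the wild-type pools. Its difference was -0.42 ± 0.0862 (limma adjusted p = 0.162). Vwa7, next to Vars, had a value on congenic pool 2 alone (9.47). Clic1, an intracellular chloride channel protein next to Msh5, read 17.78 and 17.59 in the congenic pools and 17.76 and 17.84 in the wild-type pools (difference -0.12 ± 0.0899, limma adjusted p = 0.558). The congenic and wild-type values of Clic1 overlapped and those of Lsm2 did not.

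The cytokine genes were dim or blank. Lta (probe 928351), which encodes lymphotoxin alpha, was the 1 of the 3 with a value on all arrays. It read 10.10 and 10.21 in congenic pools 1 and 2, against 9.56 and 10.15 in wild-type pools 1 and 2. Wild-type pool 1 was the low array, and the strains overlapped. The difference was 0.30 ± 0.313, and without wild-type pool 1 it was 0.005024. These values lay above 14.1% and 14.9% of the values in the congenic pools and above 6.74% and 12.1% in the wild-type pools.

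Ltb (probe 450136), which encodes lymphotoxin beta, read 10.78 and 10.48 in congenic pools 1 and 2 and was blank on both wild-type arrays. A value on both congenic arrays and no wild-type array occurred in 419 of all 33012 probes (1.27%), and the reverse in 198 (0.6%). Among the 2287 probes whose congenic mean lay from 10 to 11, as that of Ltb did, 136 (5.95%) were blank on both wild-type arrays, and the reverse held for 77 (3.92%) of 1962 probes with a wild-type mean in that range. Because the rule behind blank cells is not given in the sources used here, no fold or test is given for Ltb.

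Tnf (probe 381078), which encodes tumour necrosis factor, had a value on congenic pool 2 alone, 8.94, brighter than 1.40% of the values on that array. A value on congenic pool 2 alone was found for 971 of all probes (2.94%). No strain difference in Tnf signal could be measured with these arrays, and a blank does not show that the transcript was absent.

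Aif1 (probe 917567) encodes the calcium- and actin-binding protein also known as Iba1, widely used as a marker of macrophages. It read 11.09 and 10.85 in congenic pools 1 and 2, against 11.41 and 10.94 in wild-type pools 1 and 2. The strains overlapped, with wild-type pool 1 the highest array. The difference was -0.21 ± 0.229, within the gap of 0.471 between the wild-type pools, and without wild-type pool 1 it was 0.02384.

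H2-Ke6 (probe 910217), also named Hsd17b8, encodes a mitochondrial dehydrogenase of the 17-beta-hydroxysteroid family that works with Cbr4 in mitochondrial fatty acid synthesis. It read 14.20 and 14.26 in congenic pools 1 and 2, against 14.60 and 14.83 in wild-type pools 1 and 2. Both congenic arrays were lower, with a gap of 0.338 to the nearer wild-type pool. The difference was -0.48 ± 0.102, or 1.40-fold lower in the congenic pools. Next to it, Slc39a7, a zinc transporter, overlapped between the strains (difference 0.00 ± 0.111, limma adjusted p = 0.999). Ring1, a Polycomb protein on the other side, differed by -0.29 ± 0.0957 (limma adjusted p = 0.256).

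**Figure D2:**
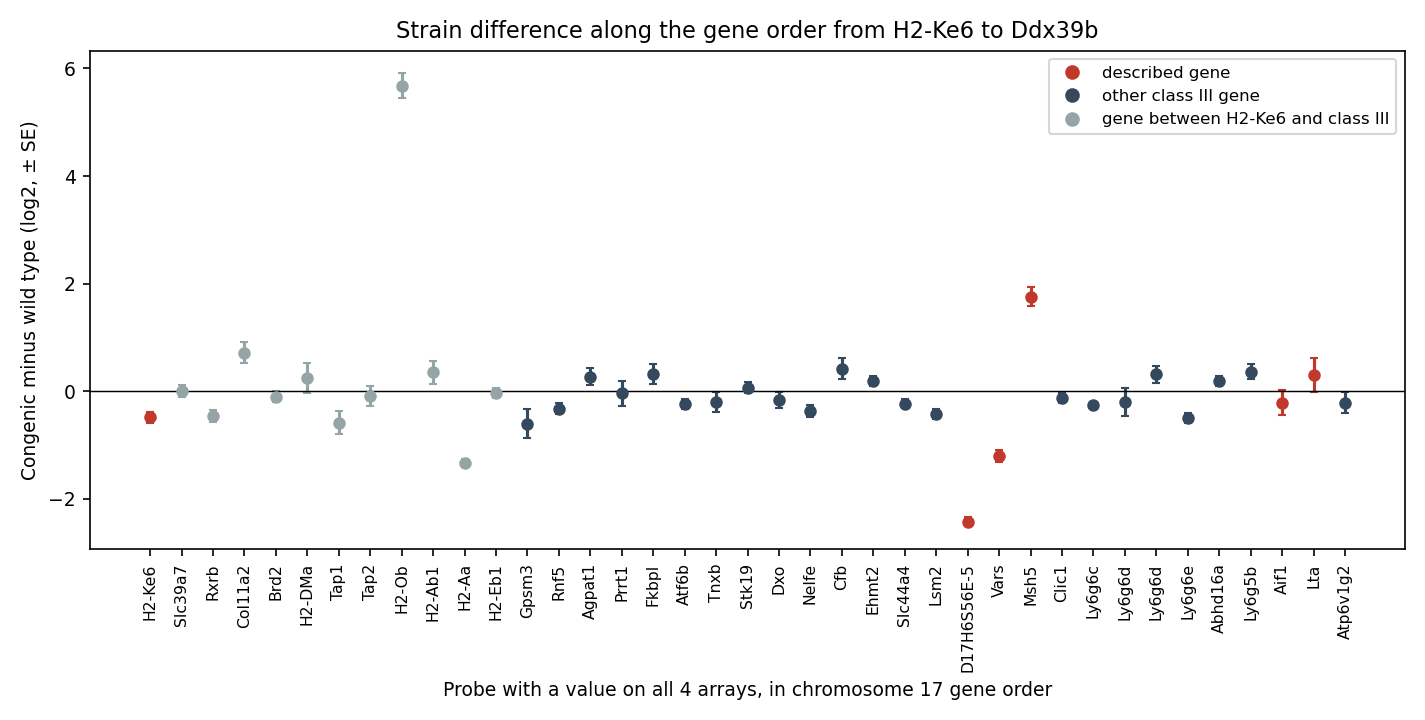
Congenic minus wild-type difference (log2, ± SE, n = 2 pools a strain) of each probe with a value on all 4 arrays, in gene order from H2-Ke6 to Ddx39b, with the genes described here in red. D17H6S56E-5 (-2.42), Vars (-1.20) and Msh5 (1.76) stand beside one another, and the other class III probes lie between -0.60 and 0.42.

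The rest of the class III stretch was examined in the same fit. Without the 7 members, it held 39 probes of 38 genes, of which 22 probes of 21 genes were compared, 8 probes were blank on all arrays and 9 on some. By limma 0 of the 22 passed over all probes, whereas 8 reached an unadjusted p below 0.05 (36.4%, against 15.8% of all compared probes), 7 lower and 1 higher in the congenic pools. The congenic and wild-type pools did not overlap for 15 of the 22 (68.2%, against 49.4%). The median difference was -0.18, against -0.002 over all compared probes. A list of class III genes written from general knowledge held the same 21 compared genes, read by 1 probe each. Its counts, 0 past the threshold and 8 with an unadjusted p under 0.05 (median -0.16), therefore repeat those above and add no support. Neither list was independent of earlier results of these data.

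The smallest unadjusted p-values in the stretch belonged to Ly6g6e and Lsm2. Ly6g6e, a member of the Ly6 family of small surface proteins, read 14.30 and 14.17 in the congenic pools and 14.67 and 14.78 in the wild-type pools (difference -0.49 ± 0.09, limma adjusted p = 0.134). Ly6g6c, of the same family, differed by -0.26 ± 0.0708 (limma adjusted p = 0.206). Nelfe, a subunit of the negative elongation factor that pauses RNA polymerase, differed by -0.37 ± 0.11 (limma adjusted p = 0.231). Ly6g5b differed by 0.36 ± 0.139 (limma adjusted p = 0.300) and was the 1 of the 8 that was higher. The 2 probes of Ly6g6d disagreed in sign, with differences of -0.20 and 0.32.

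Between H2-Ke6 and the class III stretch, 11 other probes were compared, and limma called 1 higher, the class II gene H2-Ob (5.68 ± 0.227, adjusted p = 0.0005403), and 1 lower, the class II gene H2-Aa (-1.33 ± 0.0807, adjusted p = 0.002967). H2-Aa was not called without congenic pool 1.

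Genes whose signal varied most like that of each member over the 4 arrays were found by the distance between profiles centred on their own means. The profiles were not scaled, so genes with a strain difference of similar size come out as near. With 4 arrays this is description only. The closest to D17H6S56E-5 were Taf11 (distance 0.266, difference -2.40) and Decr2 (0.474, difference -1.96), and the closest to Vars were Mtch1 (0.0854, difference -1.23) and Plin3 (0.0972, difference -1.27). All 4 are genes of chromosome 17. The closest to Msh5 were Chil3 on chromosome 3 (0.0567, difference 1.71) and Hpx on chromosome 7 (0.318, difference 1.50). For Lta they were Ublcp1 and S1pr5, for Aif1 Rnf123 and Chd4, and for H2-Ke6 Ncln and Mbd4, all on other chromosomes.

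Genes that act with the cytokines showed no call, but with 0.475% of all compared probes called, a short list holds few calls either way. An unadjusted p below 0.05 was found for 15.8% of all compared probes, the share to hold beside this and each list below. Of 22 receptor and signalling genes of tumour necrosis factor and lymphotoxin on the array, 12 were compared and limma called 0, with 1 unadjusted p below 0.05 and a median difference of -0.11. That gene was Cflar, an inhibitor of caspase-8 activation, which differed by 0.38 ± 0.0975 (limma adjusted p = 0.193). Ltbr, the lymphotoxin beta receptor, read 12.38 and 12.71 in the congenic pools and 12.90 and 12.82 in the wild-type pools (difference -0.32 ± 0.142, limma adjusted p = 0.351). Tnfrsf1a, a receptor for tumour necrosis factor, differed by -0.13 ± 0.0771 (limma adjusted p = 0.450).

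Of 13 chemokine and adhesion genes that these cytokines are known to induce, 6 were blank on all arrays, among them Cxcl13, Icam1 and Madcam1. The 4 compared gave 0 calls in limma and 1 unadjusted p under 0.05, Ccl5, a T cell-attracting chemokine (-0.60 ± 0.187, limma adjusted p = 0.242). The median of the 4 was -0.14. Ccl21a, a lymphoid homing chemokine, differed by 0.05 ± 0.0713 (limma adjusted p = 0.769).

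The families of the other members were measured likewise. Besides Vars, 22 aminoacyl-tRNA synthetases and their cofactors were compared, limma called 0, 1 unadjusted p was below 0.05, and their differences lay between -0.40 and 0.41 with a median of 0.04. Farsb, the beta subunit of the phenylalanine enzyme, had the unadjusted p under 0.05 (0.41 ± 0.131, limma adjusted p = 0.246). Vars2, the mitochondrial valine enzyme and also a gene of chromosome 17, read 12.91 and 12.15 in the congenic pools and 12.46 and 12.40 in the wild-type pools, which overlapped (difference 0.10 ± 0.246, limma adjusted p = 0.870). The difference of Vars, -1.20, lay outside the range of the 22, but Vars was picked with its difference known, so this is description only.

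Of the mismatch repair and MutS and MutL genes other than Msh5, 3 were compared, and limma called 0, with 0 unadjusted p-values below 0.05 (median 0.15). Msh6, a mismatch recognition protein and another gene of chromosome 17, differed by 0.23 ± 0.0951 (limma adjusted p = 0.318). Of 9 genes of the HSD17B family and mitochondrial fatty acid synthesis besides H2-Ke6, limma called 0, with 0 unadjusted p-values below 0.05 (median -0.07). Cbr4, the partner of H2-Ke6, differed by -0.08 ± 0.108 (limma adjusted p = 0.751).

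**Figure D3:**
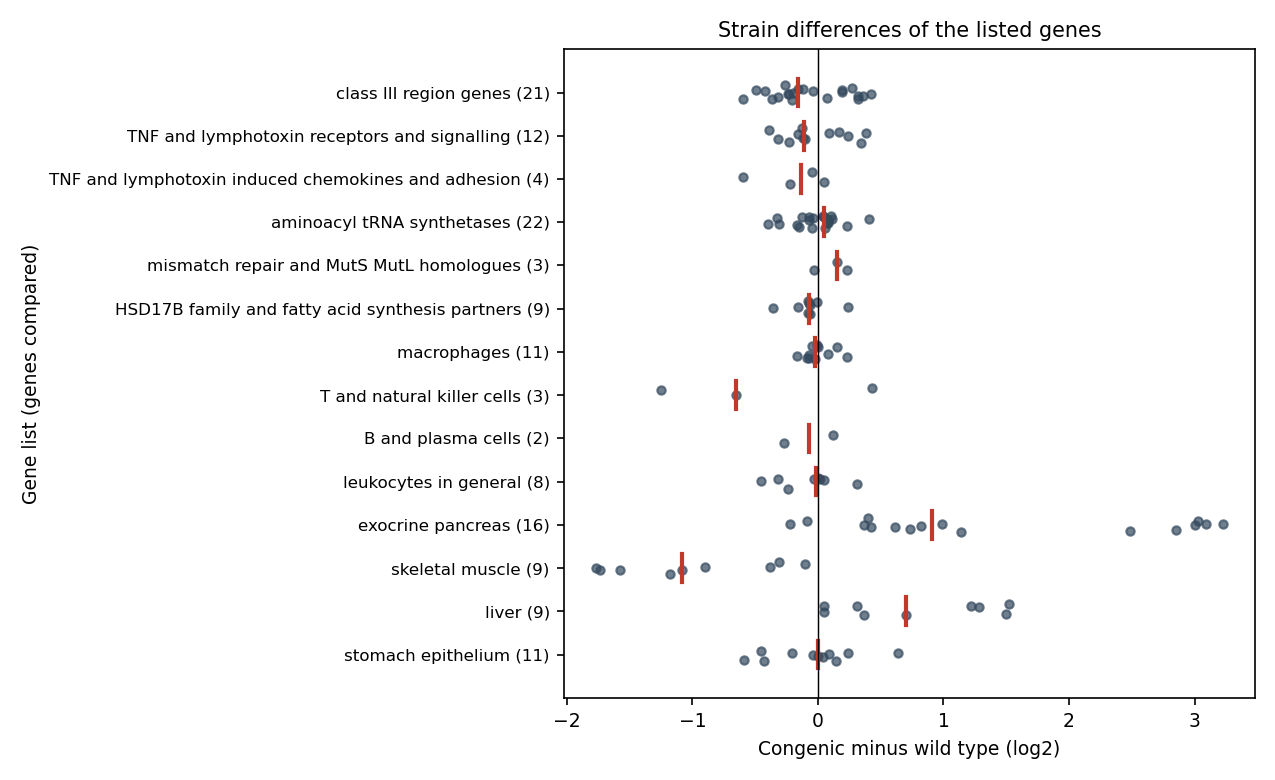
Congenic minus wild-type differences (log2) of the genes of each list with a value on all 4 arrays (points, with the number of genes in brackets) and the list's median (red bar), leaving out the 8 genes. The lists that go with the 8 genes (the upper 6) have medians between -0.16 and 0.15, while exocrine pancreas and liver genes lie to the right and skeletal muscle genes to the left.

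Markers of the cells that make these cytokines were measured beside them. In whole-stomach RNA, fewer cells of a type and less RNA per cell cannot be told apart. Of 11 macrophage markers other than Aif1, such as the complement genes C1qa and C1qb, limma called 0, and 0 unadjusted p-values were below 0.05. Their median difference was -0.02, and the summed signal of the list with Aif1 was 17.81 and 17.85 (log2) in the congenic pools and 17.86 and 17.80 in the wild-type pools. Of 8 general leukocyte markers, limma called 0, and 3 had an unadjusted p below 0.05, all lower, namely Rac2 (-0.45 ± 0.165), Cd52 (-0.32 ± 0.118) and Lsp1 (-0.24 ± 0.0836). The median was -0.02, and the summed signal was 15.87 and 15.84 in the congenic pools and 15.95 and 15.98 in the wild-type pools. Ptprc, the defining leukocyte gene, was blank on all arrays.

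Lymphocyte markers were too often blank to compare as lists. Of 14 T and natural killer cell genes, 3 were compared and 9 were blank on some arrays. Cd5, a T cell surface protein, read 16.53 and 16.66 in the congenic pools and 17.95 and 17.73 in the wild-type pools, and it fell (-1.25 ± 0.0999, limma adjusted p = 0.00907). The call was lost, with the sign kept, when congenic pool 1 (difference -1.18) or congenic pool 2 (-1.31) was dropped and when the variance trend was not modelled (-1.25). The other 2 did not pass and had opposite signs, Cd2 with -0.65 ± 0.249 (limma adjusted p = 0.300) and Nkg7 with 0.43 ± 0.226 (limma adjusted p = 0.407). The summed signal of the 3, most of it from Cd5, was 16.68 and 16.83 in the congenic pools and 18.01 and 17.80 in the wild-type pools. Cd5 was far brighter than the other T cell genes, such as Cd2 (11.63 and 11.05 in the congenic, 11.77 and 12.19 in the wild-type pools). Whether its probe reads T cells in stomach was not tested. Cd3d and Cd3e had a value on congenic pool 1 alone, and Cd3g on congenic pool 2 alone. Of 9 B and plasma cell genes 2 were compared and limma called 0, with 0 unadjusted p-values below 0.05 and summed signals of 14.86 and 14.74 in the congenic pools and 14.91 and 14.97 in the wild-type pools. Ms4a1, a defining B cell gene, was blank on all arrays. Of the 53 macrophage, lymphocyte and leukocyte markers on the array, 4 had values on both congenic arrays and none on the wild-type arrays, as Ltb did, and 0 had the reverse. The 4 were Zap70 and Gzmb of T and natural killer cells, Cd79a of B cells and Spi1 of leukocytes in general. Over all 33012 probes these shares were 1.27% and 0.6%. Among probes with a congenic mean from 10 to 11, 5.95% were blank on both wild-type arrays. The pattern of Ltb was not limited to blood cell markers. The exocrine pancreas genes Ctrl, Reg2, Gp2, Cuzd1 and Spink1 had it too, and Eno3 of skeletal muscle had the reverse. The part of lymphocyte content in the pattern of Ltb was not tested.

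Markers of neighbouring tissues also moved with strain. Of 16 exocrine pancreas genes compared, 14 had a positive difference and 2 a negative one (median 0.91). Their summed signal was 21.46 and 21.43 in the congenic pools and 21.04 and 21.07 in the wild-type pools. Of the 16, limma called 10, all higher. The count was 5 without congenic pool 1 and 6 without congenic pool 2. All 9 liver genes compared had a positive difference (median 0.70), with sums of 18.79 and 18.69 in the congenic pools and 18.60 and 18.61 in the wild-type pools. Limma called 2 of them higher, and these calls were lost when either congenic pool was dropped. All 9 skeletal muscle genes compared had a negative difference (median -1.08), with sums of 16.33 and 16.37 in the congenic pools and 17.32 and 17.40 in the wild-type pools. Limma called 3 of them, all lower. That count was 1 without congenic pool 1 and 2 without congenic pool 2. With no variance trend in the fit, 6 pancreas, 0 liver and 1 muscle genes were called. Both Cela2a and Acta1, defining genes of pancreas and muscle, had values on all arrays. Of the 11 stomach epithelial genes limma called 0 (1 higher when wild-type pool 2 was dropped), and 3 had an unadjusted p below 0.05, all lower, namely Gast (-0.59 ± 0.0989), Ghrl (-0.43 ± 0.093) and Atp4a (-0.21 ± 0.0794). Their median was 0.00, and their sums, 23.10 and 23.01 in the congenic pools and 22.94 and 23.11 in the wild-type pools, included Gkn2, which read the shared maximum of 21.25 on every array. The part of these tissues in the differences of the 8 genes was not tested. Probe sequences were not used here, so whether CAST and C57BL/6J differ in sequence under a probe was not tested either.

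**Figure D4:**
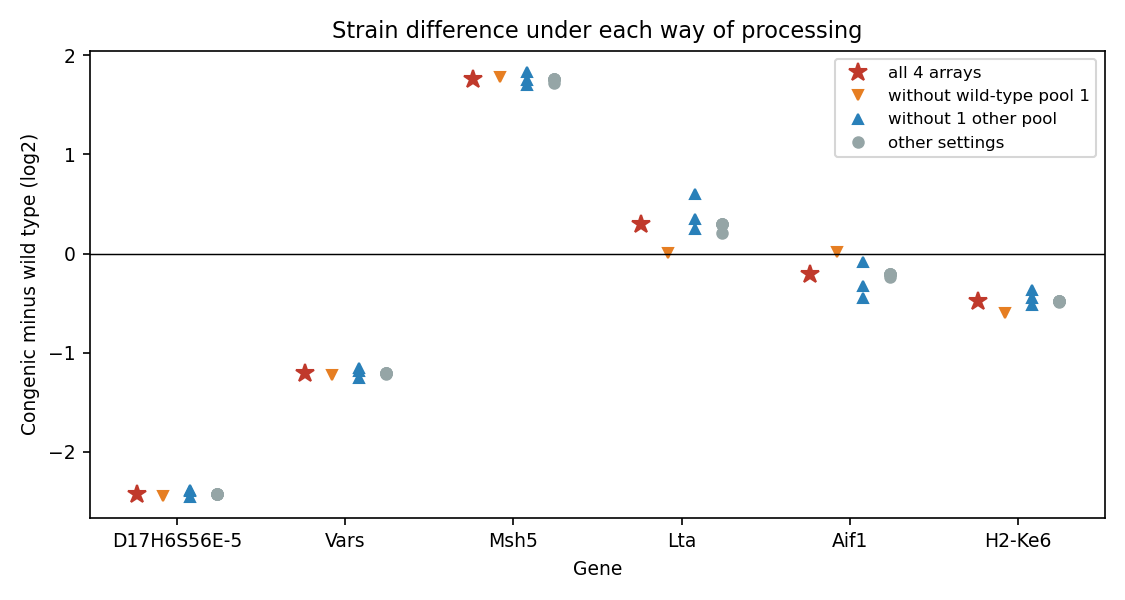
Congenic minus wild-type difference (log2) of the 6 genes with a value on all 4 arrays, from all arrays, without wild-type pool 1, without each other pool, and under the other ways of processing. D17H6S56E-5, Vars, Msh5 and H2-Ke6 kept their sign in each setting in which they were measured (Vars and Msh5 were not among the brighter probes kept when dim ones were left out), while without wild-type pool 1 Lta came to 0.005024 and Aif1 to 0.02384.

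Across the ways of processing, the 3 largest differences moved little. Leaving out 1 pool at a time gave -2.45 to -2.38 for D17H6S56E-5, -1.25 to -1.15 for Vars and 1.70 to 1.83 for Msh5. It gave -0.60 to -0.37 for H2-Ke6. The ranges were wide relative to the difference for Lta (0.01 to 0.60) and Aif1 (-0.45 to 0.02), the 2 genes whose strains overlapped.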

How the data were processed

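Stomach RNA was transcribed into digoxigenin-labelled cRNA for single-colour arrays, per the labels' protocols. For each probe, the authors deposited 1 signal per array, taken here as log2 from its range. How the authors normalized it and when they left a cell blank is not given in the sources used here, and signal over background is unknown. The array medians over their own values were 12.23 to 12.34. Probes were named through the platform's annotation (1 symbol for 14411 of 33012 probes, several for 247, none for 18354), and gene order came from RefSeq (GRCm38.p6). The array's build is unknown.

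Strains were compared by limma (version 3.58.1, under R 4.3.3; a linear model and eBayes with trend, two-sided, Benjamini-Hochberg over 13475 probes), tested on simulated data. No renormalization, pseudocount or dim-probe filter was used. For lists, a gene with several probes was read by the most complete and then brightest probe. The 8 genes and all lists were chosen with earlier results of these data known. Genes were named by rule: the 8, list genes past the threshold or among the smallest p-values, the 2 nearest profiles, and the measured neighbours. Msh4, Vwa7, the blank marker genes, Zap70, Gzmb, Cd79a, Spi1, Gkn2, Vars2, Cbr4, Tnfrsf1a, Ccl21a and Ly6g6d were named after their values were seen. So were Ctrl, Reg2, Gp2, Cuzd1, Spink1 and Eno3. Alternatives were a replicate block, quantile normalization, median centring, each pool left out, no variance trend, dim probes left out and 1 blank allowed. Figures used matplotlib 3.10.9.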

Additional observations from a re-analysis of the deposited data

How the results depend on the processing

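Of all compared probes, 64 passed in limma, against 20 without the variance trend and 35 with the replicate number as a block, and between 15 and 168 when 1 pool was left out. The 8 genes were picked with their differences known, so their calls show only how calls depend on processing and are no evidence of a strain difference. Of the 6 compared, 3 passed the threshold, against 0.475% of all compared probes. The count was 1 with dim probes left out (2 tested) and 1 with the replicate block, D17H6S56E-5 being the 1 in both cases. It was 2 without the variance trend, where Vars was not called. With 1 pool left out, the differences were -2.45 to -2.38 for D17H6S56E-5, -1.25 to -1.15 for Vars and 1.70 to 1.83 for Msh5. Aif1 changed sign without wild-type pool 1 (0.02384) and ranged from -0.45 to 0.02 over the pools left out. The other class III probes gave 0 calls in limma under every alternative run. The pool numbers were not taken to pair the samples: deviations of equally numbered pools correlated at -0.0643. The cause of these changes was not tested. With 2 pools a strain, and blanks whose rule is unknown and which also occur on bright probes such as Ddx39b, no strain difference is given for Tnf or Ltb.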
